A study of Mus musculus with 24 samples.

Results

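*Nfia*, *Nfib*, *Nfic* and *Nfix* encode the 4 nuclear factor I proteins, a family of transcription factors, and *Zbtb20* encodes a zinc finger and BTB domain repressor. These 5 genes were taken by symbol from a table of 54658 genes, of which 34228 were above 0 in at least 1 library. Each of the 5 passed the filter on low values, a mean of at least 10, in every comparison. They were followed through 24 libraries of mouse dorsal telencephalon by *Cep135* genotype, age and time in culture.

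Nuclear factor I proteins bind DNA as dimers at paired TTGGC half-sites, and they can activate or repress the genes they bind. In the embryonic cortex, *Nfia*, *Nfib* and *Nfix* are known for moving progenitors from a proliferative state towards the production of neurons and, later, of glia, and young neurons also express them. *Zbtb20* is known for the patterning of the hippocampus and for late cortical neurons and astrocytes. CEP135 is a centriole protein, and its loss is a model of primary microcephaly.

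The 8 groups held 3 libraries each. Cortices of E11.5 embryos came from *Cep135* (-/-) mutants A, B and C and from (+/+) controls D, E and F. Cortices of E14.5 embryos came from mutants 1, 2 and 6 and from controls 3, 4 and 5, and cells of the same 6 E14.5 embryos were also kept as neurospheres for 12 and 24 hours. The mutant allele is a germline deletion made by CRISPR in zygotes and kept on a C57BL/6J background, so all cells of a mutant carry it. The neurospheres were grown in suspension with EGF and FGF2 from neocortex digested with papain, and they hold whatever cells survive that step beside progenitors. No library received a drug. The titles of the E14.5 embryos share 1 prefix and those of the E11.5 embryos have 2 others, so that age and title prefix cannot be told apart. A and D share a prefix, as do B, C, E and F, although the descriptions of B and C carry a different one. What a prefix stands for is not given in the sources used here. One label of the mutant 6 cortex gives the earlier age, and it was kept at E14.5, the age in its title.

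The libraries held 4732781 to 11645213 reads on genes, and no 2 of them were identical. Normalized read counts are used throughout, that is reads on a gene divided by 1 size factor per library. The reads lie at the 3′ ends of transcripts, so they do not show the deleted bases. Why the level of *Cep135* itself did not clearly change was not tested. At E11.5 its mean was 303 ± 50.1 (SD, n = 3) for mutants against 329 ± 42.2 for controls, and at E14.5 it was 227 ± 54.7 against 206 ± 56.5. It passed the threshold in no genotype comparison. By *Xist* and Y-linked genes, embryos A, C, E, 1 and 2 were female and the other 7 male, so that the E14.5 controls were all male. The 8 apical progenitor markers and the 10 neuron markers of the lists were above 0 in every group. Microglia, endothelium and meninges markers were also present in the cortices, and 7 of 7, 6 of 6 and 6 of 6 tested ones fell on entry into culture.

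The genes lie on 4 chromosomes of GRCm38. *Nfia* (ENSMUSG00000028565) spans 97772734 to 98118874 on the plus strand of chromosome 4, and *Nfib* (ENSMUSG00000008575) spans 82290173 to 82705750 on its minus strand. *Nfic* (ENSMUSG00000055053) lies at 81396186 to 81455635 on the minus strand of chromosome 10. *Nfix* (ENSMUSG00000001911) lies at 84699876 to 84800344 on the minus strand of chromosome 8. *Zbtb20* (ENSMUSG00000022708) lies at 42875881 to 43642602 on the plus strand of chromosome 16. GENCODE lists 8, 12, 7, 8 and 21 transcripts for *Nfia*, *Nfib*, *Nfic*, *Nfix* and *Zbtb20*. The coding ones end at 4 or 5 positions for the nuclear factor I genes and at 12 for *Zbtb20*, and a count joins all ends of a gene. The authors counted with strand, which separates *Nfib* from the antisense RNA *Gm11266* inside it. No overlapping gene on the same strand had a mean above 5.95.

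*Nfix* had the largest fold changes of the 5 genes with age, on entry into culture and in mutants at 24 hours, and its promoters are therefore shown. RefSeq promoters (GRCm38.p6) were at hand for 4 of the 5 genes, 1 each for *Nfia*, *Nfic* and *Zbtb20* and 4 for *Nfix*. None of these 7 starts is at the 5′ end of the gene span given above. That of *Nfia*, after chr4:97581693-97581942, lies before its span, and the others lie inside theirs. The bases before the 5′ ends of the spans were not searched. The half-site TTGGC was searched on both strands in the 250 bases before each start. It was present before 2 of the 7 starts, both of *Nfix*, and in 41.5% of all 32851 promoters. A half-site followed after 5 bases by its reverse complement was before none of the 7 starts, and in 0.0365% of all promoters. The 250 bases before these 2 *Nfix* starts, on the minus strand at chr8:84775829-84776078 and chr8:84772876-84773125, are given here 5′ to 3′ with the half-site in capitals. It stands 175 bases before the first of these starts and, as its reverse complement GCCAA, right beside the other.
*Nfix* start 2: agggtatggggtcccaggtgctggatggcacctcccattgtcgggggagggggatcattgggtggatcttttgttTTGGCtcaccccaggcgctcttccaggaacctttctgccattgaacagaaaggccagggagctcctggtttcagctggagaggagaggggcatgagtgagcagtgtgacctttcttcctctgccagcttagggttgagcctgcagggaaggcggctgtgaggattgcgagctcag
*Nfix* start 4: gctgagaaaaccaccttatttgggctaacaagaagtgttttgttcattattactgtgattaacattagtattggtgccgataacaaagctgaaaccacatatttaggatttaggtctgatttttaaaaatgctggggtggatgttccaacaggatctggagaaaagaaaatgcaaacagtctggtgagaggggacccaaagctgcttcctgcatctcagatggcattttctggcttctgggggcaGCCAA

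All 5 genes were higher at E14.5 than at E11.5, and 4 of them by more than 3-fold. *Nfix* rose 11.9-fold, *Nfib* 7.19-fold, *Nfia* 4.29-fold, *Zbtb20* 3.08-fold and *Nfic* 1.51-fold. In the E11.5 controls D, E and F the normalized read count of *Nfix* was 439, 580.4 and 658, and in mutants A, B and C it was 383, 393 and 328. In the E14.5 controls 3, 4 and 5 it was 5533, 6268 and 6607, and in mutants 1, 2 and 6 it was 5096, 4237 and 4856. The lowest E14.5 cortex was thus far above the highest E11.5 cortex. *Nfib* read 1649.6, 1577 and 1774 in controls D, E and F, and 1296, 1365 and 1284 in mutants A, B and C. At E14.5 it read 12022, 13352 and 12911 in controls 3, 4 and 5, and 8928, 8132 and 9667 in mutants 1, 2 and 6. Again no E14.5 library came near an E11.5 library. For *Nfia*, E11.5 cortices ranged from 1261 to 1682 and E14.5 cortices from 5524 to 7404. For *Zbtb20* these ranges were 693 to 878 and 2038 to 2716, which are also apart. The share of all genes whose ranges are apart between the ages was not counted. *Nfic* ranged from 261 to 407 at E11.5 and from 407 to 602 at E14.5, where the highest and the lowest value just overlapped.

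**Figure D1:**
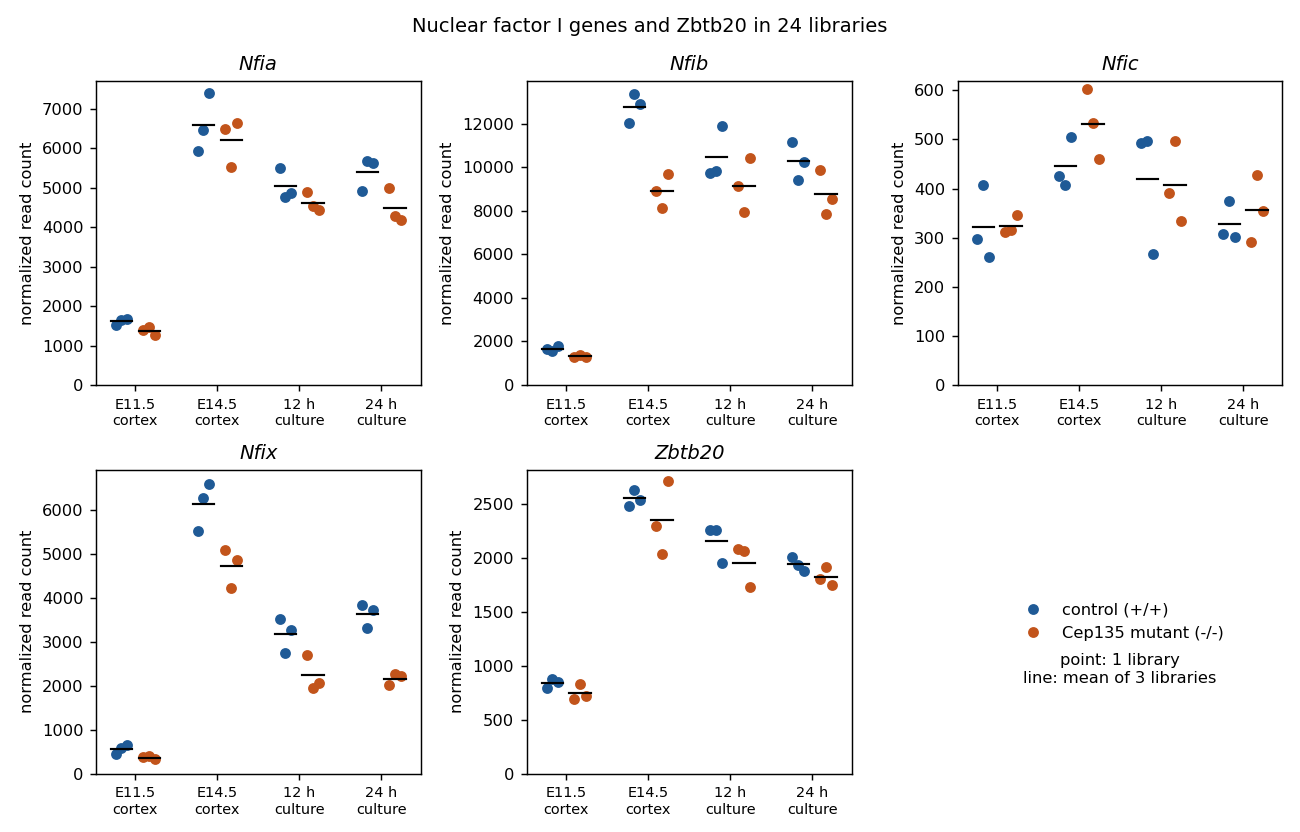
Normalized read count (vertical axis, from 0) of each gene in every library, by age or hours in culture (horizontal axis); points are libraries, blue for control and orange for mutant, and lines are means of 3. The genes other than *Nfic* are low at E11.5 and high from E14.5 on, and *Nfix* falls again in culture, with its mutant points below its control points in each of the 4 pairs of groups. The E14.5 cortex and culture points come from the same embryos.

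Tests were made with limma after adding 1 to each value and taking log2, with Benjamini-Hochberg adjustment over all genes tested and a threshold of 0.05. With 12 cortices and genotype as a term, the log2 difference with age was 3.57 (SE 0.10, adjusted p = 7.77e-13) for *Nfix* and 2.85 (SE 0.075, adjusted p = 2.78e-13) for *Nfib*. It was 2.10 (SE 0.083) for *Nfia*, 1.62 (SE 0.082) for *Zbtb20* and 0.60 (SE 0.11, adjusted p = 0.000369) for *Nfic*. All 5 passed, as did 53.1% of the 13650 genes tested, so a call alone says little here. Ranked by p-value among those genes, *Nfib* had rank 3, *Nfix* 4, *Nfia* 25, *Zbtb20* 69 and *Nfic* 3164. The exact permutation test within genotype gave p = 0.005 for *Nfia*, *Nfib*, *Nfix* and *Zbtb20*, the smallest p that this design allows, and p = 0.01 for *Nfic*. The rise was seen in both genotypes, at 3.47 in controls and 3.68 in mutants for *Nfix*, and at 2.94 and 2.76 for *Nfib*, all on the log2 scale. The interaction of age with genotype passed for none of the 5 genes and for 0% of all genes, of which 1070 and none of the 5 had an unadjusted p under 0.05.

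Genes of several marker lists also differed between these ages, and their link to the 5 genes was not tested. The early progenitor timing list, with the RNA-binding proteins and the chromatin factor known to mark young progenitors, had 6 of 6 tested genes lower at E14.5, with a median of -1.93 against -0.08 for all genes. On the log2 scale *Hmga2* was at -4.50, *Igf2bp1* at -2.07, *Igf2bp3* at -1.53 and *Lin28b* at -1.79. Of 13 late progenitor and astroglial genes, 11 passed as higher and 2 as lower, with a median of 1.16. Of all 13650 genes tested, 3252 passed as higher and 3995 as lower. *Slc1a3*, a glutamate transporter of radial glia and astrocytes, rose by 1.46, and *Bcan* and *Slc1a2* by 3.82 and 1.16. Of 7 genes described as regulated by nuclear factor I proteins, 2 passed as higher and 2 as lower, with a median of -0.15, and 5 were lower by sign. That list was not split into activated and repressed genes, so its median has no set direction. *Mmd2* rose by 3.05 and *Fabp7* by 0.74, and *Hes1* and *Sox9* fell, to -1.02 and -0.66. *Fabp7* and *Sox9* also stand in the astroglial list. All 10 neuron markers rose, with a median of 1.79, and all 8 apical progenitor markers fell, with a median of -0.95. In bulk tissue fewer cells of a type and less RNA per cell cannot be told apart.

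Cells taken into culture kept most of their E14.5 level, except for *Nfix*. After 12 hours *Nfix* read 3517, 2756 and 3263 in controls 3, 4 and 5 and 2710.5, 1949 and 2075 in mutants 1, 2 and 6. These are 51.8% of the control mean and 47.5% of the mutant mean in the cortex. All 6 embryos went down, by 0.65 to 1.23 on the log2 scale, and the 2 sets of libraries do not overlap. The fitted difference was -1.02 (SE 0.10, adjusted p = 3.11e-06, limma), and in the fit with the embryo as a replicate block its adjusted p was 1.51e-05. *Nfia* was lower in 6 of 6 embryos and fell by 0.40 (SE 0.088, adjusted p = 0.00278), a call lost with a term for the *Gm42418* share (adjusted p = 0.0903). *Zbtb20* was lower in 5 of 6 embryos, at -0.25 (SE 0.091, adjusted p = 0.0462), a call that was lost with the embryo as a replicate block (adjusted p = 0.0754). It was lost in 15 of 23 alternatives, among them each library left out except the E14.5 cortex of mutant 2 (adjusted p = 0.0361 without it). *Nfib* (-0.13, SE 0.10) and *Nfic* (-0.27, SE 0.16) did not pass. These 3 calls of 5 stand beside 30.2% of the 13601 genes tested, the 2 of edgeR beside 28.8% and the 3 of DESeq2 beside 33.2%. The shares of all genes that fell in 6 of 6 embryos, or without overlap, were not counted.

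The fall of *Nfix* came with many other shifts at the start of culture. Of all 13601 genes tested, 2187 passed as lower and 1920 as higher. Of 13 late progenitor and astroglial genes, 9 passed as lower and 0 as higher, with a median of -1.16, and 12 were lower by sign. Of 7 genes described as regulated by nuclear factor I proteins, 5 passed as lower and 0 as higher, with a median of -1.02. That list was not split into activated and repressed genes, so its median has no set direction. Of 8 apical progenitor markers, 4 passed as lower and 1 as higher (median -0.54), and of 6 intermediate progenitor markers 3 passed as lower. Of 7 erythroid markers, 6 passed as higher (median 1.31). The part of these shifts in the change of *Nfix* was not tested. The neuron markers had a median of -0.0020, and 1 of 10 passed, downwards. From 12 to 24 hours no gene of the 5 passed, beside 0.292% of 13359 genes. *Nfix* changed by 0.08 (SE 0.097) and *Zbtb20* by -0.12 (SE 0.079), the latter lower in 5 of 6 embryos. None of the 5 had an unadjusted p under 0.05 there, and edgeR and DESeq2 also called 0 of them, beside 0.314% and 1.2% of all genes.

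**Figure D2:**
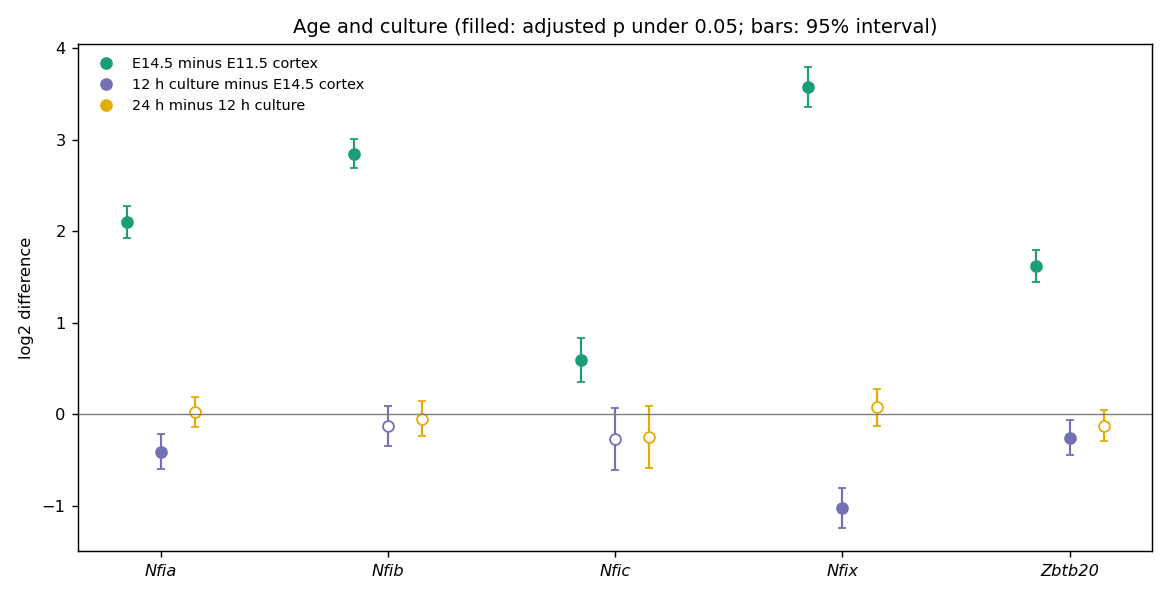
Log2 difference (vertical axis) of each gene (horizontal axis) with age, on entry into culture and from 12 to 24 hours; points are fitted values with 95% intervals, filled where the adjusted p is under 0.05. The age differences run from 0.60 for *Nfic* to 3.57 for *Nfix*, and *Nfix* has the lowest value on entry into culture, -1.02.

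**Figure D3:**
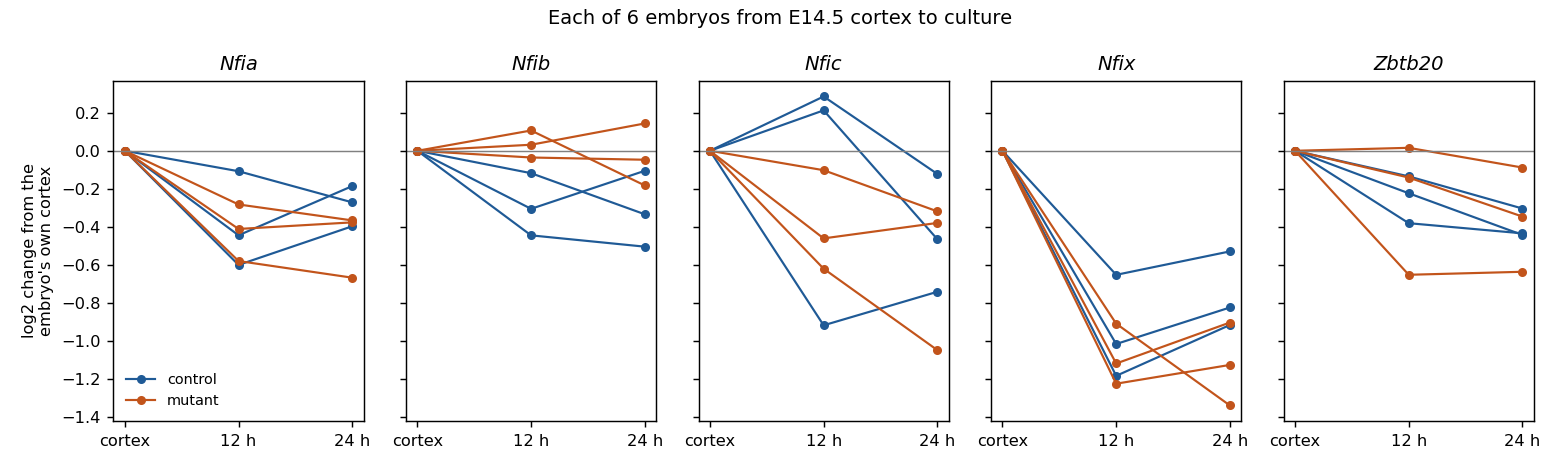
Log2 change (vertical axis) from each embryo's own E14.5 cortex to its cells after 12 and 24 hours (horizontal axis), 1 line per embryo, blue for controls and orange for mutants. The 6 lines of *Nfix* go down by 0.65 to 1.23 within 12 hours, while those of *Nfib* lie between -0.50 and 0.14 at both times.

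In each of the 4 settings *Nfix* was lower in every mutant than in every control. The E14.5 cortex and both culture times came from the same 6 embryos, so these settings are not independent of each other. At 24 hours controls 3, 4 and 5 read 3831, 3318 and 3728, and mutants 1, 2 and 6 read 2011, 2263 and 2222. The mutant mean was 59.7% of the control mean, and no value of one genotype was near the other. The log2 difference was -0.74 (SE 0.11, adjusted p = 0.0150, limma), which passed, beside 0.271% of 13300 genes. Its rank by p was 10. EdgeR and DESeq2 also called *Nfix* alone of the 5, beside 0.301% and 1.37% of all genes. The other 4 genes did not pass there, with *Nfia* at -0.27 (SE 0.12), *Nfib* at -0.23 (SE 0.12), *Zbtb20* at -0.09 (SE 0.11) and *Nfic* at 0.11 (SE 0.18).

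The same direction was measured for *Nfix* in the other settings without a call. The mutant mean was 65.8% of the control mean in E11.5 cortex, 77.1% in E14.5 cortex and 70.6% after 12 hours. The log2 differences were -0.59 (SE 0.16, adjusted p = 0.549), -0.38 (SE 0.13, adjusted p = 0.498) and -0.51 (SE 0.16, adjusted p = 0.913), all by limma. In the fit of all 12 cortices, which has an age term, it was -0.48 (SE 0.10, adjusted p = 0.114). The exact permutation test within age gave p = 0.005 for *Nfix* and for *Nfib*, the smallest this design allows, whereas 3 libraries against 3 cannot go below 0.1. Within both E11.5 title prefixes the mutants were lower for *Nfix*, with A at 383 against D at 439, and B and C at 393 and 328 against E and F at 580.4 and 658.

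*Nfib* was the gene that passed over the 12 cortices. Its mutant mean was 78.9% of the control mean at E11.5 and 69.8% at E14.5, and the genotypes did not overlap at either age. The log2 difference was -0.43 (SE 0.075, adjusted p = 0.0271, limma), and 0.139% of the 13650 genes passed. With title prefix as a replicate block it stayed past the threshold (adjusted p = 0.0422), but the call was lost in 12 of 22 alternatives, namely the term for embryo sex, no filter on low values (adjusted p = 0.113) and 10 of the 12 libraries left out in turn. Within single ages it was -0.34 (SE 0.098, adjusted p = 0.573) at E11.5 and -0.52 (SE 0.13, adjusted p = 0.332) at E14.5. In culture the genotypes overlapped for *Nfib*, at -0.20 (SE 0.14) after 12 hours.

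*Nfia* and *Zbtb20* were also lower on average in mutants of each setting, by smaller amounts, and passed in none; with a term for sex both changed sign at E14.5. *Nfia* at E11.5 read 1518, 1658 and 1682 in controls and 1392, 1469 and 1261 in mutants, without overlap, and its difference was -0.24 (SE 0.10, adjusted p = 0.669). Over the 12 cortices it was -0.16 (95% interval -0.34 to 0.01). *Zbtb20* differed by -0.15 over the cortices (95% interval -0.32 to 0.02). *Nfic* was the exception in direction, at 0.25 (SE 0.15, adjusted p = 0.621) at E14.5, where controls read 425, 407 and 505 and mutants 602, 534 and 460.4. Its values overlapped in every setting.

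Counts of genes with every mutant below every control put this in context. At E11.5 these were 3 of the 5 genes (*Nfia*, *Nfib* and *Nfix*) beside 6.11% of all genes tested, and at E14.5 2 of 5 (*Nfib* and *Nfix*) beside 6.71%. After 12 hours and after 24 hours it was 1 of 5, *Nfix*, beside 5.94% and 9.06%. At both cortex ages at once it was 2 of 5, *Nfib* and *Nfix*, beside 0.52%. By adjusted p, none of the 5 passed at E11.5 (0.0149% of all genes), at E14.5 (0.0736%) or after 12 hours (0%). At an unadjusted p under 0.05 these counts were 3, 2 and 1 of the 5, and 991, 1236 and 650 of all genes. At E14.5 edgeR called 0 of the 5 beside 0.0663% of all genes, and DESeq2 called 1, *Nfib*, beside 0.471%. After 12 hours both called 0 of the 5, beside 0% and 0.0672%.

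**Figure D4:**
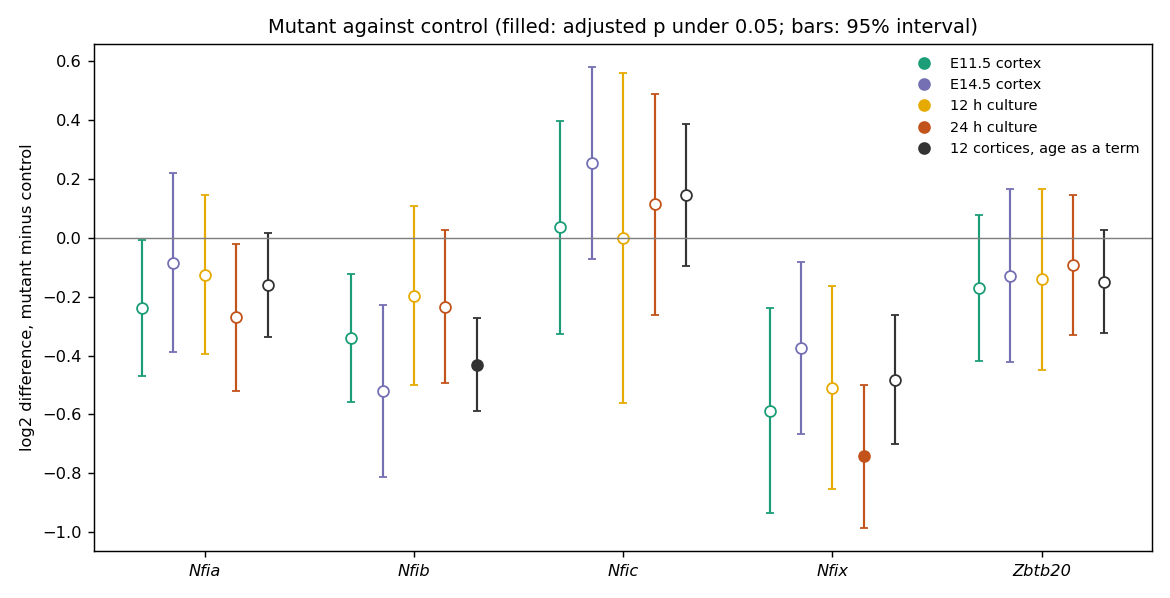
Log2 difference of mutants minus controls (vertical axis) for each gene (horizontal axis) in 5 comparisons; points are fitted values with 95% intervals, filled where the adjusted p is under 0.05. *Nfix* lies below 0 in all 5 with a filled point at 24 hours (-0.74), *Nfib* is filled for the 12 cortices (-0.43), and the intervals of *Nfic* all include 0.

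Single neuron markers passed between genotypes at E14.5 and after 24 hours, 1 and 2 of 10, and none at E11.5 or after 12 hours. The summed level of the 10 markers was 40810 to 43591 in E14.5 controls and 30882 to 33020 in mutants, and 36434 to 43577 and 28858 to 36081 after 24 hours, without overlap in either. At E11.5 the ranges overlapped, with 9396 to 14018 in controls and 9902 to 10681 in mutants. They also overlapped after 12 hours, with 33898 to 46719.8 in controls and 29341 to 38997 in mutants. The values of 10 of 10 markers were lower in mutants at E11.5, E14.5 and 24 hours and those of 9 of 10 at 12 hours. *Neurod6* at E14.5 and *Neurod6* and *Fezf2* after 24 hours passed. None of the 10 was at 0. The part of these markers in the lower *Nfib* and *Nfix* was not tested.

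Other measures also moved with genotype at 24 hours. The share of counts on *Gm42418*, an RNA gene that holds ribosomal RNA sequence, was 20.5% to 23.0% in mutants and 6.26% to 13.9% in controls. Mutant libraries held 7903426 to 11645213 reads on genes and control libraries 4732781 to 5709443. The 11 liver transcripts summed to 5256 to 16654 in mutants and 775 to 3536 in controls, and 3 of them passed (*Alb*, *Serpina1e* and *Ttr*); 6 of the 11 were at 0 in all control libraries. *Ttr*, which also stands in the choroid plexus list, made up 97.0% of that sum in mutants and 99.0% in controls. The other 10, summed after the values were seen, came to 125 to 430.4 in mutants and 11.3 to 27.0 in controls. The 8 apical progenitor markers summed to 11693 to 12963 in mutants and 9114 to 10607 in controls. The largest part of that sum was *Vim*, with means of 8398 in mutants and 6110 in controls. By sign 7 of the 8 were higher in mutants and 1 was lower, *Sox2*, with means of 1824 and 1872. With a term for the *Gm42418* share *Nfix* was at -0.55 (adjusted p = 0.939), and with a term for embryo sex at -0.70 (adjusted p = 0.137). The call was also lost without control 3 (adjusted p = 0.0727), control 5 (0.116) or mutant 6 (0.0525), with -0.81 to -0.69 over the 6 libraries left out in turn.

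For *Nfib* over the cortices, the term for embryo sex gave -0.36 (adjusted p = 0.478). The 10 left-out libraries without which the call was lost were all but E14.5 mutant 6 and E11.5 control E. Over all 12 libraries left out in turn, the limma differences were -0.46 to -0.39 and the adjusted p 0.0227 to 0.113. Microglia markers at E14.5 summed to 839 to 1069 in mutants and 434 to 536 in controls, and *Cx3cr1* passed (1.12, SE 0.16). Their part in the result was not tested. Of the other lists, the choroid plexus and cortical hem markers *Ttr* and *Rspo3* passed after 24 hours, in opposite directions. No gene of the lists for early progenitor timing, late progenitors and astroglia, nuclear factor I targets, apical or intermediate progenitors, ventral telencephalon, meninges, erythroid cells or endothelium passed between genotypes. For early progenitor timing the values of 5 of 5 tested genes were higher in mutants at E14.5 (median log2 difference 0.43 against 0.013 for all genes), and 6 of 6 over the cortices (median 0.34). The summed level of that list was 3009 to 3453 in E14.5 mutants and 2329 to 2859.5 in controls, and 3352 to 3738 and 2878 to 3040.4 after 24 hours, without overlap in either.

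**Figure D5:**
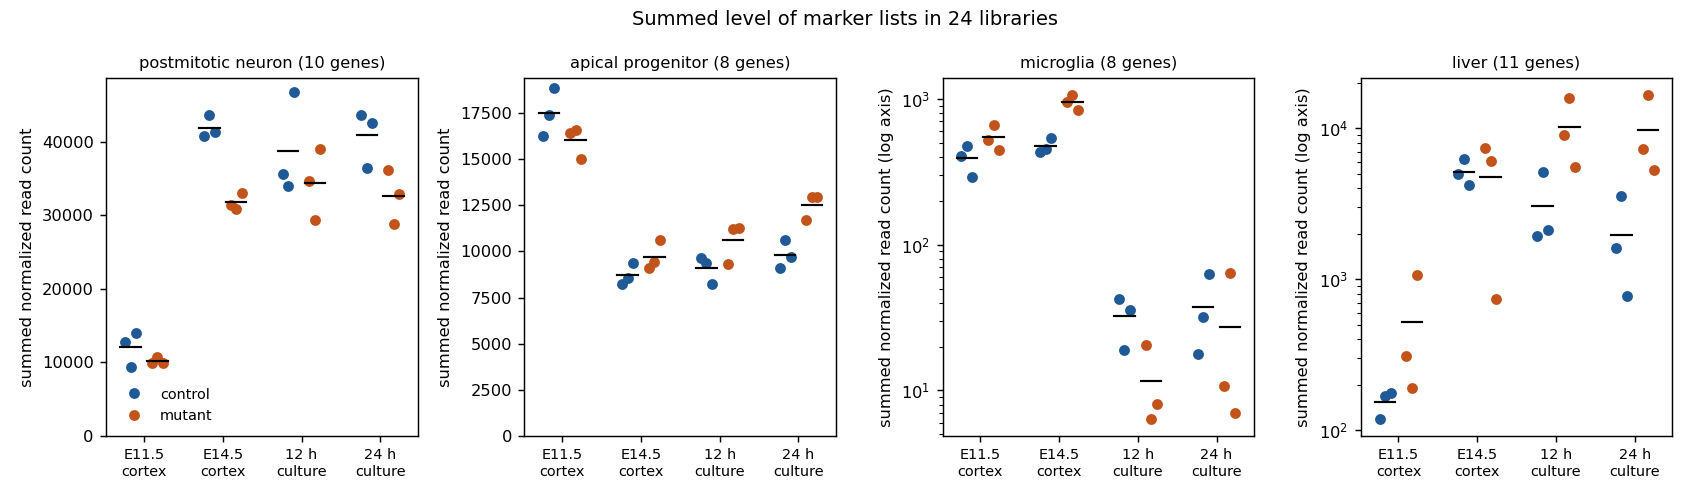
Summed normalized read count (vertical axis, logarithmic for microglia and liver) of 4 marker lists in every library by age or hours in culture (horizontal axis); points are libraries, blue for control and orange for mutant, and lines are means of 3. Neuron markers are lower in all mutants at E14.5 (30882 to 33020) than in controls (40810 to 43591), and the liver sum at 24 hours, higher in all mutants, is 97.0% *Ttr* in them, a gene that is also in the choroid plexus list.

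Whether the genotype difference itself changed between settings was tested with interaction terms. *Nfix* at 24 hours against E14.5 cortex had the largest one in size for that gene, -0.37 (SE 0.17, unadjusted p = 0.0420, adjusted p = 0.786). No gene of the 5 passed for 12 hours against cortex, 24 hours against cortex or 24 against 12 hours, and 0% of all genes passed in each, with 724, 836 and 318 at an unadjusted p under 0.05. EdgeR called none of the 5 in these 3 tests, beside 0.00735%, 0% and 0% of all genes, and DESeq2 none, beside 0.0368%, 0.147% and 0%. *Nfib* was at 0.32 (SE 0.20, adjusted p = 0.793) after 12 hours, where its control mean was 82.1% of the cortex and its mutant mean 103%. The larger *Nfix* difference at 24 hours is therefore not shown to differ from that in cortex.

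The 8 groups were ordered by mean, and neighbours were compared by whether the ranges of their 3 libraries overlapped. This tests no step, and the share of all genes with such gaps was not counted. For *Nfix* the order from low to high was mutant and control E11.5 cortex, mutant 24 hours, mutant 12 hours, control 12 hours, control 24 hours, mutant and control E14.5 cortex. Only the mutant groups at 24 and 12 hours and the control groups at 12 and 24 hours overlapped with their neighbour. The gap between the genotypes at 12 hours was narrow, from 2710.5 in mutants to 2756 in controls. For *Nfib* the E11.5 groups and the E14.5 controls (12762 ± 678, SD, n = 3) stood apart, and the 5 groups between, from 8751 ± 1017 to 10476 ± 1232, overlapped in a chain. For *Nfia* and *Zbtb20* the 6 groups after E11.5 overlapped in a chain, and for *Nfic* all 8 did.

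The genes whose levels ran most like each of the 5 were taken over the 24 libraries. By Pearson's r of log2 values, *Nfib* was closest to *Neurod2* (0.99), *Fam49a* and *Bcl11b*, and *Nfia* to *Kcnq3* (0.98), *Gabra2* and *Zbtb18*. *Nfix* was closest to *Mras* (0.97), *Gabra2* and *Sez6*, and *Zbtb20* to *Foxo6* (0.98), *Bcl11a* and *Zbtb18*. *Neurod2* and *Bcl11b* are transcription factors of cortical neurons, and *Gabra2* and *Kcnq3* encode an ion channel subunit each. *Nfic* was closest to *Chmp1a*, *Arf5* and *Exoc3*, at only 0.81. Among the members, *Nfia*, *Nfib*, *Nfix* and *Zbtb20* had r of 0.95 to 0.98 with each other, and *Nfic* 0.38 to 0.55 with them. By Spearman's rho these ranges were wider, at 0.68 to 0.94 and at 0.077 to 0.66. These correlations describe 24 libraries of 12 embryos, with ages, title prefixes and embryos in common. They span the step with age, where *Neurod2* read 78.6 to 222 at E11.5 and 2050 to 5174 in the later libraries. Correlations within the later libraries alone were not computed.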

How the data were processed

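RNA of 24 libraries (cortices of 12 embryos, and 12 neurosphere cultures of 6 of them) was read by QuantSeq at 3′ ends. The authors aligned reads to GRCm38 with TopHat 2.0.10 and counted them by strand with HTSeq 0.6.1 on GENCODE genes. They deposited signal, read counts divided by 1 size factor per library, and the method of the size factors is not given in the sources used here. In 23 libraries 464180 of 464180 values above 0 were whole reads within 1e-06; control D at E11.5 could not be shown to be, so edgeR 4.0.16 and DESeq2 1.42.0 were run on whole reads only where D was not compared.

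The test was limma 3.58.1 (R 4.3.3), trend option on, applied to log2 values after adding 1, and genes averaging under 10 were left out. Exact tests were two-sided. Cortex and cultures of 1 embryo were paired by the labels, and their deviations from the group means had correlations of -0.11 to 0.24 over 18 pairs (median 0.14). The 5 genes, the gene lists and the tests were chosen with earlier results of these data known, and so were the alternatives: adding 0.1 or 5 instead of 1, keeping every gene above 0 or only those averaging 50 or more, an adjusted p under 0.1, other scalings, terms for sex and *Gm42418*, blocks and leaving out libraries. Genes named are the 5, *Cep135*, the 3 most alike by Pearson's r, and per list up to 4 passing genes by smallest p, of which 1 is not reported here; other marker genes were named after their values were seen. Gene positions came from GENCODE vM21, and each library is 1 embryo or its culture.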

Additional observations from a re-analysis of the deposited data

How the results depend on the processing

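The rises with age of all 5 genes and the fall of *Nfix* on entry into culture kept their direction and their side of the threshold in every alternative run. The number of the 5 genes past the threshold moved in these cases. At E14.5 it went from 0 to 1 with DESeq2 (64 genes in all against 10). At 24 hours it went from 1 to 0 with a term for sex or for the *Gm42418* share, and was 0 to 1 with libraries left out in turn. Over the cortices it went from 1 to 0 without a filter or with a term for sex, to 2 with quantile normalization, and was 0 to 1 with libraries left out. On entry into culture it went from 3 to 1 with the *Gm42418* term, to 2 without a filter or with edgeR, and was 2 to 3 with libraries left out. In the fits with a replicate block, paired by embryo or title prefix, it was 0 at E11.5, 1 over the cortices, 2 on entry into culture and 0 from 12 to 24 hours and for the interactions; no call but that of *Zbtb20* changed. Mutants and controls are different embryos, so the genotype comparisons could be paired only by title prefix.

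Small differences without a call changed sign. With a term for sex, *Nfic* was at -0.065 at E11.5 and -0.013 over the cortices, and at E14.5 *Nfia* was at 0.015 and *Zbtb20* at 0.091. *Nfic* at 12 hours was at 0.015 with median-of-ratios rescaling and 0.0089 with quantile normalization, which put the interaction at 12 hours at 0.057 for *Nfia* and 0.065 for *Zbtb20*. With the *Gm42418* term, *Nfic* was at -0.12 at 24 hours; from 12 to 24 hours *Nfia* was at -0.0039 and *Nfix* at -0.057; the interaction with age was -0.064 for *Zbtb20*; and that of 24 against 12 hours was 0.030 for *Nfib* and -0.15 for *Nfic*. With libraries left out, *Nfia* ranged from -0.16 to 0.00073 at E14.5 and from -0.00078 to 0.057 from 12 to 24 hours, where *Nfib* ranged from -0.086 to 0.0011. *Nfic* ranged from -0.10 to 0.22 at E11.5, from -0.30 to 0.15 at 12 hours and from -0.025 to 0.25 at 24 hours. The interactions ranged from -0.13 to 0.034 (*Nfia*) and -0.11 to 0.097 (*Zbtb20*) at 12 hours, from -0.28 to 0.0011 (*Nfic*) and -0.061 to 0.15 (*Zbtb20*) at 24 hours, from -0.14 to 0.059 (*Nfib*), -0.036 to 0.41 (*Nfic*) and -0.037 to 0.12 (*Zbtb20*) for 24 against 12 hours, and from -0.069 to 0.14 (*Zbtb20*) with age. The causes were not tested. The closest genes changed with Spearman's rho or with controls alone: of 3, 0 to 2 were shared.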
